A study of Mus musculus with 27 samples.

Results

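Macrophages clear dying cells by efferocytosis, and 6 genes of its best known receptor system are described here across all libraries of the series. They are the TAM receptor tyrosine kinases Tyro3, Axl and Mertk, their secreted ligands Gas6 and Pros1, and Mfge8, a secreted bridge that works through another class of receptor. The members were taken by gene symbol from the deposited expression table, whatever their values, and make up 6 of the 19069 genes with a symbol. RNA of macrophages grown from bone marrow of C57BL/6 mice (C57/B6 in the strain label) was sequenced, and the 27 libraries form 9 groups of 3. Isolated marrow cells received 5 Gy of FLASH proton irradiation (dose given at an ultra-high rate), 5 Gy of standard proton irradiation, or none. All cells then spent 7 days in mouse CSF-1 at 10 ng/ml, which drives macrophage differentiation, so every group was irradiated, if at all, as precursors and not as macrophages. The last step lasted 2 days. M0 cells stayed in control medium, M1 cells received 100 ng/ml of LPS, a component of the bacterial wall, and M2 cells received 20 ng/ml of the type 2 cytokine IL-4. The labels do not say whether replicates came from separate cultures or mice, so p-values here measure the spread between these libraries only.

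A dying cell turns phosphatidylserine, a lipid of the inner membrane leaflet, to its surface. GAS6 and protein S, the product of Pros1, bind this lipid through a vitamin K-dependent domain and dock onto TAM receptors on the phagocyte, while MFG-E8 links the lipid to the integrins αvβ3 and αvβ5. GAS6 binds all TAM receptors, and protein S is known mainly as a ligand of TYRO3 and MERTK. MERTK is the TAM receptor classed with resting and anti-inflammatory macrophages, AXL the one classed with inflamed ones, and signals through both dampen cytokine production.

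The libraries held 20.68 M to 25.84 M assigned reads, as recovered from the table. Levels are CPM, reads per gene after the authors brought the libraries to a common size. The defining macrophage genes were present in every library, with Csf1r at 784 to 2257 CPM and Cd68 at 518 to 1211 CPM. Cdkn1a, a p53 target, lay at 478 to 858 CPM in the FLASH libraries and 507 to 771 CPM in the standard ones, against 168 to 353 CPM without irradiation. Each library was also placed on an LPS axis of 23 genes and an IL-4 axis of 18 genes, where 0 is the mean of non-irradiated M0 and 1 that of non-irradiated M1 or M2. In 5 libraries, all replicate 1 of an irradiated group, these axes went against the label. On the IL-4 axis, 0.72 was reached by the library labelled FLASH M0 and 0.78 by the one labelled standard M1. Both stood at -0.12 on the LPS axis. The LPS axis was at 0.97 and 0.999 in the libraries labelled FLASH M2 and standard M2, and at -0.15 in the one labelled FLASH M1. On the IL-4 axis these stood at -0.23, -0.18 and -0.23, in that order. The labels were kept, and the results that rest on these libraries are given with and without them. Leaving them out selects libraries by their LPS and IL-4 response, which favours differences between the states. The p-values without them depend on that choice.

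RefSeq start sites on GRCm38.p6 were found for 6 of the 6 genes, and windows from 250 bases before to 50 bases after the start were read. Of these, 4 are printed: Gas6 and Mfge8, the pair of members whose levels were most alike over the libraries, Mertk, the member with the smallest p for a difference in LPS response between irradiated and non-irradiated cells, and Pros1, which was lower in M1 than in M2 without irradiation. The windows are chr8:13494486-13494785 on the minus strand, chr7:79149011-79149310 on the minus strand, chr2:128698665-128698964 on the plus strand and chr16:62854057-62854356 on the plus strand. Capitals mark matches, on either strand, to any of 7 motifs.
Gas6: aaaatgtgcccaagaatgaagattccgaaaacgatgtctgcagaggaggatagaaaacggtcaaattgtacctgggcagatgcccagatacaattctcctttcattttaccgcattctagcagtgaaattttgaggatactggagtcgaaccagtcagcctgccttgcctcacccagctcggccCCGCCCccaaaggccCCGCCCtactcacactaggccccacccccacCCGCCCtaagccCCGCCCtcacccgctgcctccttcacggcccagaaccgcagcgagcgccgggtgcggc
Mfge8: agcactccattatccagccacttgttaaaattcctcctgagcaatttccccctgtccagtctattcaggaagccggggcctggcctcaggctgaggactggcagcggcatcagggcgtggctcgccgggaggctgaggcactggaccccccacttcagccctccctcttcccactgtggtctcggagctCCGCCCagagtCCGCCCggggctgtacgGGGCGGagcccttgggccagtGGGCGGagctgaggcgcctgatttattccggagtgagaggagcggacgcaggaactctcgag
Mertk: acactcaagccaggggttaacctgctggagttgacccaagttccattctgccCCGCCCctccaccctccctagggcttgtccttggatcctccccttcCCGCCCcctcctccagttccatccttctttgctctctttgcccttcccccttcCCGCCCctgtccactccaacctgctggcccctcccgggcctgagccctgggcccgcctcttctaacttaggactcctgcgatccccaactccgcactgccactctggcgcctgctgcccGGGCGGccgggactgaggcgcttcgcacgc
Pros1: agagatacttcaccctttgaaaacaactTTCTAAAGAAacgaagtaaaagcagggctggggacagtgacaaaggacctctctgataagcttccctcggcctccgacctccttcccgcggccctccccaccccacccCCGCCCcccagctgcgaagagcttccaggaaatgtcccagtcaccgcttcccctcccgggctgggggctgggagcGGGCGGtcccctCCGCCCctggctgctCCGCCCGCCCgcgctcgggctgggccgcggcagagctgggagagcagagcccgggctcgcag
The motifs were the interferon element GAAANNGAAA, the STAT6-type site TTCNNNNGAA, the AP-1 site TGANTCA, the LXR element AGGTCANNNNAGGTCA, the MAF half-site TGCTGA, the GC box GGGCGG and the CCAAT box. All 6 windows held GC boxes, 4 each in Gas6, Mfge8 and Mertk, 5 in Pros1, 6 in Tyro3 and 2 in Axl, against 35.7% of 32851 mouse promoter windows with at least 1. Their GC content was 58.3% to 73.3%, and the median over all windows was 52.7%. The Pros1 window alone among the 6 held a STAT6-type match, at position -222 from the start site, and such matches occur in 6.95% of all windows. The other 5 motifs had no match in any of the 6 windows. A match describes letters only, and no binding was measured here.

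LPS was compared with control medium in cells that had not been irradiated, to describe what the M1 state does to the system. Gas6 fell and Mertk rose. In non-irradiated M0 the Gas6 level was 287, 302 and 299 CPM in replicates 1, 2 and 3, the order used throughout, and in M1 it was 71.6, 50.6 and 75.9 CPM. No M1 library came near an M0 library. The log2 fold change of Gas6, on the log2(CPM + 0.5) scale used for all of them, was -2.18 (SE 0.47, limma adjusted p = 0.0056). The receptor Mertk went the other way, from 219, 291 and 194 CPM in M0 to 302, 347 and 352 CPM in M1. The groups did not overlap, but the lowest M1 library was close to the highest M0 library. Mertk changed by 0.53 (SE 0.18, adjusted p = 0.047), and this call was lost when M0 replicate 1 or 3 or any of the M1 libraries was left out (adjusted p = 0.059 to 0.20). It was also lost with no filter on low values (0.062), without an intensity trend and robust moderation (0.056), with replicate number as a block (0.073) and with replicate numbers 2 and 3 alone (0.068). Thus 2 of the 6 genes were called at an adjusted p under 0.05, where 17.4% of the 13297 tested genes were.

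The other members did not pass the test in M1. Pros1 lay at 100, 64.5 and 96.3 CPM in M0 and 31.7, 42.0 and 50.7 CPM in M1, with no overlap (log2 -1.06, SE 0.40, adjusted p = 0.071). It passed when M0 and M1 were fitted without the other groups (0.011) and with replicate numbers 2 and 3 alone (log2 -0.77, 0.0072). Mfge8 was spread widely in M0, at 636, 206 and 1115 CPM, and narrowly in M1, at 207, 165 and 210 CPM. M0 replicate 2 lay within the M1 range, and the log2 difference was -1.45 (SE 0.69, adjusted p = 0.15). Without that library it was -2.12 and passed (0.0497), and without M0 replicate 3, the highest, it was -0.90 (0.46). Axl, at 533, 671 and 300 CPM in M0 and 558, 384 and 474 CPM in M1, showed full overlap (log2 -0.03, 95% interval -1.05 to 1.0). Tyro3 was near the floor, with 0.45 to 2.39 CPM over these 6 libraries and as few as 10 reads in M1 replicate 3.

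The spread in this test is shared by all 9 groups, so the irradiated libraries at odds with their labels enter it. With those 5 left out, Gas6 and Mertk were called again (adjusted p = 2.9e-08 and 0.015), and Pros1 (8.1e-05) and Mfge8 (0.023) fell as well. That made 4 of 6 members, where 34.7% of all tested genes were called.

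The same comparison was made for IL-4. Gas6, Mertk and Axl fell. Gas6 lay at 67.0, 47.8 and 55.5 CPM in M2, as low as in M1, and its log2 fold change from M0 was -2.38 (SE 0.47, adjusted p = 0.0044). Mertk lay at 114, 153 and 113 CPM, below every M0 library (log2 -0.88, SE 0.18, adjusted p = 0.0052). Axl lay at 228, 179 and 56.5 CPM, also below every M0 library. Its log2 fold change was -1.84 (SE 0.49, adjusted p = 0.023), and the call was lost without M0 replicate 1 (0.069), M0 replicate 2 (0.10) or M2 replicate 3 (0.11), and when M0 and M2 were fitted alone (0.062).

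Pros1 stood at 133, 145 and 151 CPM in M2, above the 3 M0 libraries, with a log2 difference of 0.74 (SE 0.40) that did not pass (adjusted p = 0.26), but did with M0 and M2 fitted alone (0.033) or with replicate numbers 2 and 3 alone (0.0040). Tyro3 was highest in this group, at 5.04, 5.52 and 2.12 CPM, and overlapped M0 through replicate 3 (log2 1.11, SE 0.50, adjusted p = 0.16). Mfge8 lay at 283, 335 and 574 CPM, inside the M0 range. In all, 3 of 6 members were called, where 9.83% of tested genes were. Once the 5 libraries were left out Pros1 (adjusted p = 0.0033) and Tyro3 (0.045) rose too, 5 of 6 against 26.0%.

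**Figure D1:**
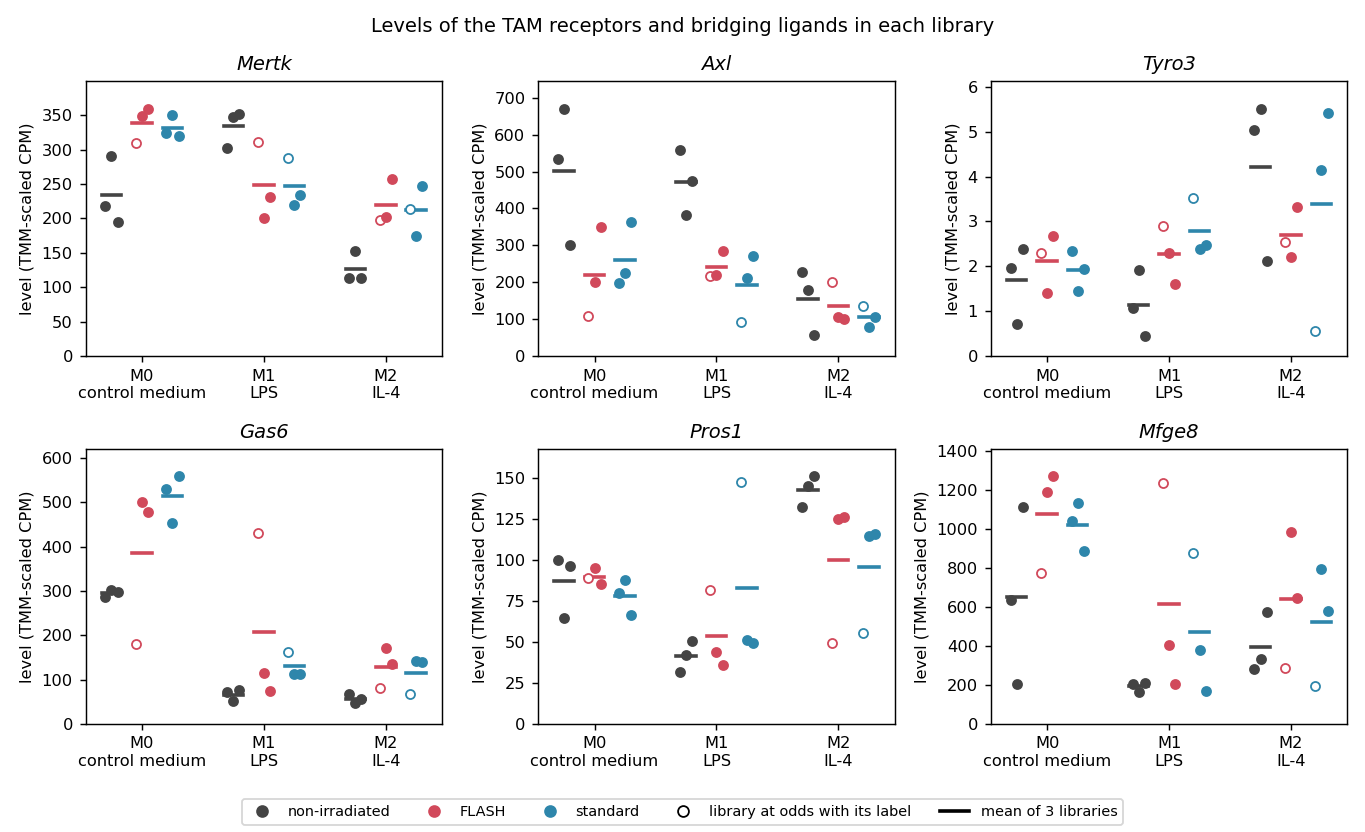
Levels of the 6 genes in CPM, on linear axes that start at 0, for each of the 27 libraries by irradiation (colour) and state. Open points are the 5 libraries whose response genes went against their label, and bars are group means. Non-irradiated Gas6 sits at 287 to 302 CPM in M0 and at 47.8 to 75.9 CPM in M1 and M2, while non-irradiated Mertk is highest in M1 and lowest in M2.

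M1 and M2 were also set directly against each other without irradiation. Mertk lay higher in M1 than in M2 by 1.41 (SE 0.18, adjusted p = 6.7e-05) and Axl by 1.81 (SE 0.49, adjusted p = 0.010). Pros1 lay lower (log2 -1.80, SE 0.40, adjusted p = 0.0030), and Tyro3 had a log2 fold change of -1.53 (SE 0.50, adjusted p = 0.025). No M1 library overlapped an M2 library for these 4 genes, nor for Mfge8. The share of all tested genes without such overlap was not determined, so this is a description only. Here 4 of 6 members were called, where 30.5% of tested genes were, and 4 of 6 against 42.3% without the 5 libraries. Gas6 did not differ detectably (log2 0.21, 95% interval -0.77 to 1.19). The Axl call was lost without M2 replicate 3 (adjusted p = 0.064), and the Tyro3 call without M1 replicate 1 or 3 or M2 replicate 1 or 2 (0.055 to 0.12) or with replicate numbers 2 and 3 alone (0.059). Mfge8 differed by -0.97 and passed only when these groups were fitted without the others (adjusted p = 0.019).

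Transcripts differ in length, so levels were compared between genes only as CPM per kilobase of the longest coding transcript. In non-irradiated M0, Mfge8 had the highest level at 307, followed by Axl at 118 and Gas6 at 116. Mertk stood at 54.5, Pros1 at 26.3 and Tyro3 at 0.38 CPM per kilobase. In M1 the receptors Axl (111) and Mertk (77.6) stood beside Mfge8 (91.3), and the ligands Gas6 and Pros1 were at 25.9 and 12.6. In M2 Mfge8 stood at 187 and Pros1 at 43.3, with Axl at 36.2, Mertk at 29.4, Gas6 at 22.3 and Tyro3 at 0.95. Of the TAM ligands in non-irradiated cells, Gas6 was thus above Pros1 in M0 and M1 and below it in M2. Irradiated groups were not compared in this way. The library values behind the Axl and Mfge8 means spread so widely that their neighbours in this order cannot be ranked.

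The same LPS and IL-4 steps were examined in cells irradiated beforehand. Among all libraries labelled FLASH, Gas6 lay at 181, 501 and 478 CPM in M0, 430, 115 and 74.8 CPM in M1 and 80.8, 170 and 136 CPM in M2. The replicate 1 libraries stand out here: the one labelled M0 was the lowest of its group and the one labelled M1 the highest. The log2 fold changes were -1.18 (SE 0.47) in M1 and -1.51 (SE 0.47) in M2. Mertk lay at 310, 349 and 360 CPM in M0, 312, 200 and 232 CPM in M1 and 198, 203 and 258 CPM in M2. No M2 library overlapped M0, while M1 replicate 1 lay inside the M0 range. With all libraries limma called 0 of 6 members in M1 and 0 of 6 in M2, with 2 at an unadjusted p under 0.05 in each, and it called 0% of all tested genes in both comparisons. Gas6 in M1 passed when FLASH M1 replicate 1 alone was left out (log2 -1.92, adjusted p = 0.022).

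Without the libraries at odds with their labels, FLASH M0, M1 and M2 hold 2 libraries each. The libraries left out were chosen by LPS and IL-4 response genes, and the same responses are tested here, so these p-values depend on that choice. In M1 against M0, Gas6 (log2 -2.39, SE 0.20, adjusted p = 2.7e-07), Mfge8 (-2.10, SE 0.57, 0.012), Pros1 (-1.17, SE 0.20, 0.00039) and Mertk (-0.72, SE 0.19, 0.011) fell, 4 of 6 where 24.6% of tested genes were called. In M2 against M0, Gas6 (-1.68, SE 0.20, 3.2e-05) and Mertk (-0.63, SE 0.19, 0.041) fell, 2 of 6 where 12.0% were. Axl differed by -1.36 (SE 0.51) in M2 and did not pass (adjusted p = 0.097).

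After standard irradiation Gas6 lay at 530, 453 and 558 CPM in M0, 163, 113 and 112 CPM in M1 and 66.5, 141 and 140 CPM in M2. All M0 libraries were above all others, and the fold change in M2 was called (log2 -2.22, SE 0.47, adjusted p = 0.038) and that in M1 was not (-2.001, SE 0.47, 0.11). The M2 call was lost whichever of the 6 libraries was left out (adjusted p = 0.089 to 0.15) and with the replicate block (0.084). The M1 difference passed with M0 and M1 fitted alone (0.026). Mertk lay at 325, 351 and 320 CPM in M0, 288, 219 and 234 CPM in M1 and 213, 175 and 247 CPM in M2. Both treated groups were below M0 with no overlap, and neither difference passed (M1 -0.43, adjusted p = 0.26; M2 -0.66, adjusted p = 0.071). In M1 limma called 0 of 6 members, with 2 at an unadjusted p under 0.05, where 0% of tested genes were called. In M2 it called 1 of 6, where 0.474% were.

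With the 5 libraries left out, Gas6 (log2 -2.18, SE 0.18, adjusted p = 3.1e-07), Mfge8 (-2.02, SE 0.52, 0.0095), Pros1 (-0.62, SE 0.19, 0.022) and Mertk (-0.55, SE 0.18, 0.030) fell in standard-irradiated M1. These were 4 of 6 members, where 23.4% of tested genes were called. In M2, Gas6 (-1.86, SE 0.18, 3.1e-06), Axl (-1.47, SE 0.46, 0.042) and Mertk (-0.67, SE 0.18, 0.015) fell and Pros1 (0.57, SE 0.19, 0.049) rose, 4 of 6 where 14.3% were called.

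**Figure D2:**
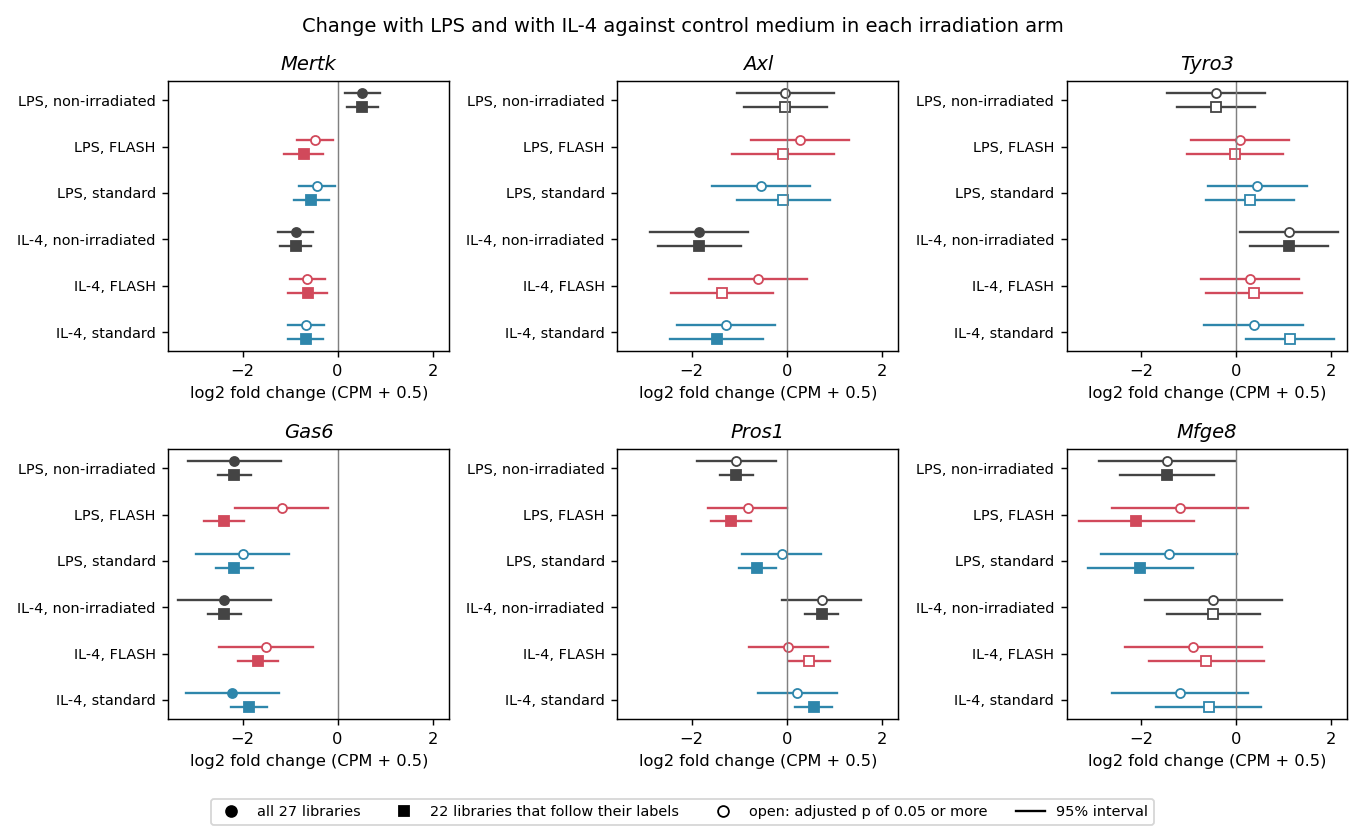
Log2 fold changes of the 6 genes in M1 and in M2 against M0, within each irradiation group, with 95% intervals (lines), for all libraries (circles) and without the 5 libraries at odds with their labels (squares), filled where the adjusted p is under 0.05. The Mertk response to LPS is above 0 in non-irradiated cells (0.53) and below 0 after FLASH (-0.47) and standard irradiation (-0.43), while every Gas6 value lies below 0.

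Mertk was thus higher in every M1 library than in every M0 library without irradiation, and lower in every one after standard irradiation. The difference between these responses was tested directly, as the interaction of irradiation with LPS. For Mertk it was -1.0 after FLASH (SE 0.25, unadjusted p = 0.00075) and -0.96 after standard irradiation (SE 0.25, unadjusted p = 0.0011), and neither passed the adjustment over all genes (limma adjusted p = 0.16 and 0.21). These comparisons called 0.120% of tested genes for FLASH and 0.0902% for standard, and 0 of 6 members, with Mertk the 1 member at an unadjusted p under 0.05 in each. Without the 5 libraries the FLASH interaction was -1.24 (SE 0.25, adjusted p = 0.037) and was called, where 0.384% of tested genes were. The standard interaction was -1.07 (SE 0.24, adjusted p = 0.057) and was not, where 0.384% were. FLASH M0 and M1 then held 2 libraries each. Of 22 alternatives, the FLASH interaction passed in this 1 (highest adjusted p = 0.36) and the standard interaction in 0. Both interactions share the same non-irradiated libraries. For the other 5 members the interaction with LPS ran from -0.51 to 0.997 over both modes, and none had an unadjusted p under 0.05.

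The interaction with IL-4 called 0 of 6 members for either mode with all libraries, none at an unadjusted p under 0.05, where 0% of tested genes were called. After removal of the 5 libraries it again called 0 of 6, with 1 member, Gas6, at an unadjusted p under 0.05 for each mode (log2 0.70 for FLASH and 0.52 for standard). Of all tested genes 0% were then called for FLASH and 0.0226% for standard.

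Irradiated cells were then compared with non-irradiated cells, within each state and as an equal-weight mean of the 3 states. Mertk rose in irradiated M2 cells in both modes, and Gas6 rose over the mean of states after standard irradiation. Mertk lay at 114, 153 and 113 CPM in non-irradiated M2, and no library of FLASH M2 (198 to 258 CPM) or standard M2 (175 to 247 CPM) reached down to that range. It rose by 0.79 after FLASH (SE 0.18, adjusted p = 0.029) and by 0.74 after standard irradiation (SE 0.18, adjusted p = 0.043). These were 1 of 6 members in each, where 1.10% and 1.35% of tested genes were called. The FLASH call was lost without FLASH M2 replicate 1, 2 or 3 or non-irradiated M2 replicate 1 or 3 (adjusted p = 0.051 to 0.17). The standard call was lost without standard M2 replicate 1 or 3 or non-irradiated M2 replicate 1 or 3 (0.14 to 0.21). Both were lost with the replicate block (0.065 and 0.087), with replicate numbers 2 and 3 alone (0.094 and 0.15) and with the compared groups alone (0.37 and 0.42), and the standard one also with no filter (0.055) and without trend and robust moderation (0.054).

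In M0 Mertk was likewise above the non-irradiated range in all 6 irradiated libraries, at 310 to 360 CPM against 194 to 291 CPM. The log2 differences were 0.55 for FLASH (SE 0.18, adjusted p = 0.12) and 0.52 for standard (SE 0.18, adjusted p = 0.16), and neither passed. In M1 the order was the opposite: the standard libraries, at 219 to 288 CPM, lay below the non-irradiated ones, at 302 to 352 CPM, and the FLASH libraries, at 200 to 312 CPM, overlapped them through replicate 1. The log2 differences were -0.45 for FLASH (adjusted p = 0.21) and -0.44 for standard (adjusted p = 0.20). Over the mean of the states, where these directions offset each other, Mertk differed by 0.30 and 0.27 (adjusted p = 0.084 and 0.11). The FLASH value passed without non-irradiated M0 replicate 2 (0.037) or M2 replicate 2 (0.0495).

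Gas6 was higher in the irradiated groups in all 3 states by the group means. Non-irradiated means were 296 ± 7.94 CPM in M0, 66.0 ± 13.6 in M1 and 56.8 ± 9.66 in M2 (SD, n = 3 throughout). After standard irradiation they were 514 ± 54.5, 129 ± 28.8 and 116 ± 42.6 CPM, and after FLASH 387 ± 179, 207 ± 194 and 129 ± 45.1 CPM. The standard M0 and M1 libraries and the FLASH M2 libraries did not overlap their non-irradiated counterparts. Over the mean of the states Gas6 rose after standard irradiation (log2 0.90, SE 0.27, adjusted p = 0.045), 1 of 6 members where 7.88% of tested genes were called. That call was lost whichever library was left out of either group, except standard M2 replicate 1 (adjusted p = 0.055 to 0.088), and also with no filter (0.054) and with the replicate block (0.074). In standard M0 alone Gas6 passed when fitted with its non-irradiated counterpart only (log2 0.79, 0.0099). After FLASH the difference was 0.87 (SE 0.27, adjusted p = 0.054), and 0 of 6 members were called, with 4 at an unadjusted p under 0.05, where 7.72% were. It passed without FLASH M0 replicate 1 (0.018), M1 replicate 3 (0.015) or M2 replicate 1 (0.034).

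In single states limma called 0 of 6 members in M0 and M1 for both modes. At an unadjusted p under 0.05 there were 2 members for FLASH M0, 2 for FLASH M1, 1 for standard M0 and 3 for standard M1. The shares of tested genes called were 2.11% and 2.53% for FLASH M0 and M1, and 2.02% and 2.60% for standard M0 and M1.

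When the 5 libraries were dropped, the Gas6 difference over the mean of states was near the same size and its error was smaller. It was 0.89 over the mean of states for FLASH (SE 0.11, adjusted p = 3.9e-05) and 0.96 for standard (SE 0.10, adjusted p = 9.7e-06). By state it rose after FLASH in M0 (0.73, adjusted p = 0.029) and M2 (1.43, 0.00043), with 0.51 in M1 (0.13), and after standard irradiation in M0 (0.79, 0.0067), M1 (0.79, 0.018) and M2 (1.31, 0.0013). Mertk rose in M2 for both modes (0.86, adjusted p = 0.012 and 0.73, 0.031) and fell in FLASH M1 (-0.63, 0.049), but was not called in standard M1 (-0.55, 0.075). Mfge8 rose over the mean of states after FLASH (0.96, SE 0.30, adjusted p = 0.044), and Axl fell over it after standard irradiation (-0.81, SE 0.26, adjusted p = 0.040).

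Read as counts, 2 of 6 members were then called over the mean of states for each mode, where 14.3% of tested genes were for FLASH and 17.9% for standard. In M0, M1 and M2 after FLASH 1, 1 and 2 members were called, where 5.29%, 4.84% and 3.28% of genes were. After standard irradiation 1, 1 and 2 were called, where 7.36%, 5.52% and 3.38% were. The FLASH and standard comparisons share their non-irradiated libraries and are not independent of each other.

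**Figure D3:**
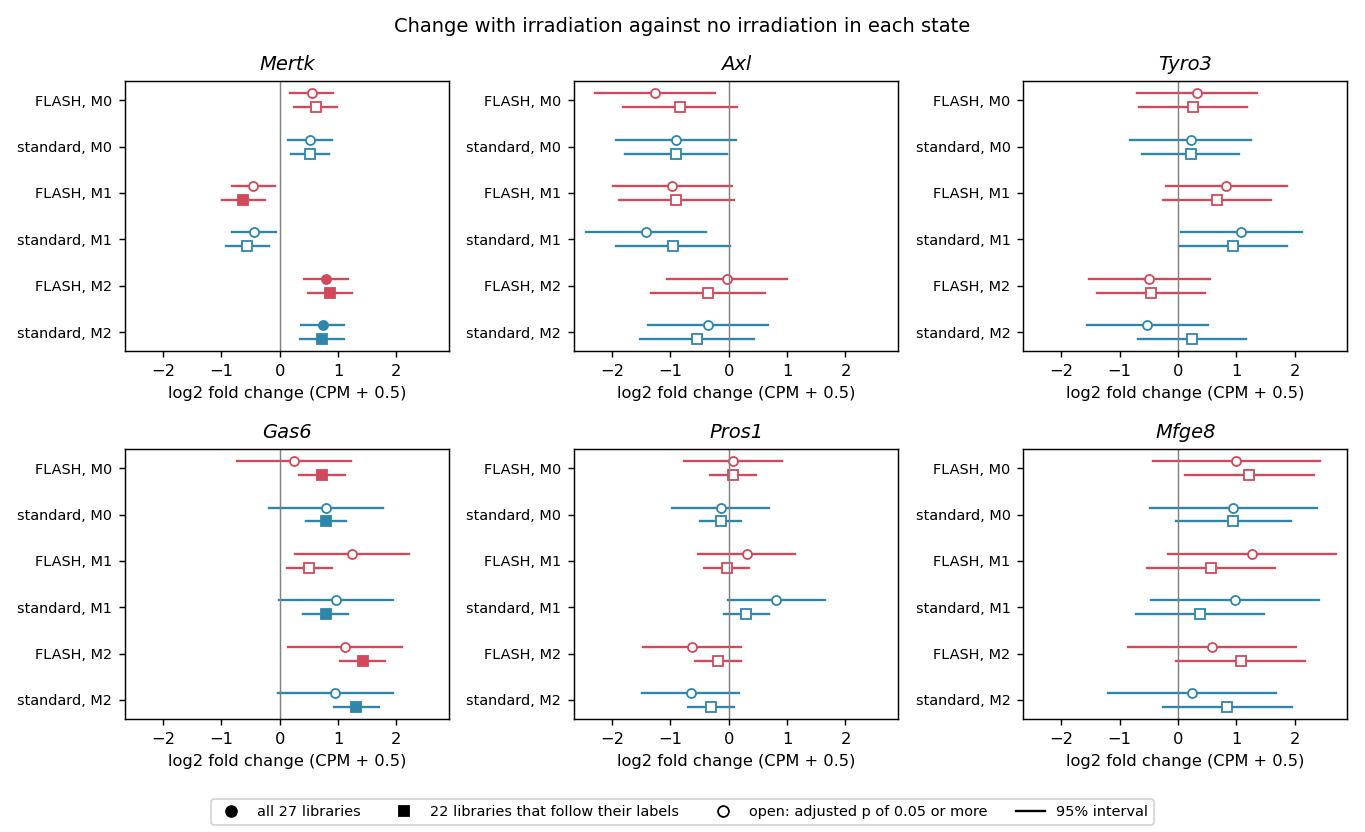
Log2 fold changes of the 6 genes in irradiated against non-irradiated cells in M0, M1 and M2, with 95% intervals, for FLASH and standard irradiation, with all libraries (circles) and without the 5 at odds with their labels (squares), filled where the adjusted p is under 0.05. Gas6 lies above 0 in every state, and Mertk lies above 0 in M0 and M2 and below 0 in M1.

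Axl, the receptor associated with inflamed macrophages, was lower in irradiated cells by the group means. In M1 the non-irradiated libraries lay at 558, 384 and 474 CPM, above all FLASH (217, 221 and 284 CPM) and all standard libraries (90.8, 211 and 271 CPM). In M0 the irradiated libraries ranged from 108 to 362 CPM and overlapped the non-irradiated ones through non-irradiated replicate 3. In M2 the irradiated libraries, at 77.8 to 201 CPM, overlapped the non-irradiated ones, at 228, 179 and 56.5 CPM. There the log2 differences were -0.04 for FLASH (limma adjusted p = 0.99) and -0.35 for standard (0.80). With all libraries no Axl difference passed, the mean of states being -0.76 for FLASH (SE 0.28, adjusted p = 0.12) and -0.90 for standard (SE 0.28, adjusted p = 0.059). The FLASH value passed without non-irradiated M2 replicate 3 (0.024). The standard value passed without non-irradiated M0 replicate 3 or M2 replicate 3, standard M1 replicate 3 or standard M2 replicate 1 (0.011 to 0.048).

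Mfge8 lay at 775 to 1272 CPM in FLASH M0 and 887 to 1137 CPM in standard M0, above non-irradiated M0 replicates 1 and 2 and around replicate 3. In FLASH M1 and M2 it spanned 203 to 1237 and 286 to 988 CPM, with replicate 1 the highest in M1 and the lowest in M2. Over the mean of states it differed by 0.95 for FLASH (SE 0.40, adjusted p = 0.16) and 0.72 for standard (SE 0.40, adjusted p = 0.30). Pros1 differed by -0.09 and 0.01 over the mean of states, with 95% intervals of -0.57 to 0.40 and -0.47 to 0.49. In M2 its irradiated libraries, at 49.3 to 126 CPM, all lay below the non-irradiated ones, and neither difference passed (-0.63 and -0.65, adjusted p = 0.52 and 0.50). The lowest Pros1 values of irradiated M2, 49.3 and 55.6 CPM, and the highest of irradiated M1, 81.5 and 148 CPM, were replicate 1 libraries at odds with their labels. Tyro3 stayed at or under 5.52 CPM in every library, and no irradiation difference passed for it.

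Whether the mode of delivery mattered was asked by setting FLASH against standard irradiation. In the 3 states and their mean limma called 0 of 6 members, none at an unadjusted p under 0.05, and 0% of tested genes, also without the 5 libraries. Over the 24 member values the log2 differences ran from -0.54 to 0.46, with 95% intervals that reached from -1.52 to 1.78. Over the mean of states they ran from -0.09 to 0.23, with intervals reaching from -0.64 to 1.06. The narrowest was that of Mertk, 0.03 with an interval of -0.19 to 0.24. These intervals bound the difference and do not show that the modes act alike.

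Same-numbered FLASH and standard libraries deviated from their group means together in M1 (r = 0.36 to 0.59) and in M2 (0.46 to 0.78), so both were also fitted as pairs, with these groups alone and replicate number as a block, a choice made after seeing the data. In all 4 of these groups replicate 1 is a library at odds with its label. Same-numbered libraries of FLASH M2 and standard M1 deviated in opposite directions (r = -0.85, -0.57 and -0.59). Whether replicate numbers pair cannot be told from these correlations. Paired, limma again called 0 of 6 members and 0 of 13297 genes in each state. At an unadjusted p under 0.05 there was 1 member in M1, Pros1 (-0.51, 95% interval -0.89 to -0.14, unadjusted p = 0.015, adjusted p = 1.0). There were 2 in M2, Mfge8 (0.34, 0.12 to 0.56, unadjusted p = 0.0062) and Axl (0.31, 0.029 to 0.60, unadjusted p = 0.034), again with adjusted p = 1.0. Unpaired and without the 5 libraries, these 3 differences were -0.34, 0.23 and 0.19 (unadjusted p = 0.11, 0.69 and 0.72).

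The members were also compared by their pattern over the 27 libraries, as Pearson's r of log2 values, given as a description because the libraries share groups and depth. Gas6 and Mfge8 were the most alike pair (r = 0.76), followed by Pros1 and Mfge8 (0.61), and Axl and Pros1 were the most opposed (-0.61). Without the 5 libraries these 3 values were 0.73, 0.58 and -0.63. Mertk had an r of 0.54 with its ligand Gas6 and 0.41 with Axl, and of 0.52 with each without the 5. Among all tested genes, the 3 most like Axl were C1qc (0.95), C1qa (0.94) and C1qb (0.93), which encode the chains of complement C1q, an opsonin that binds dying cells. Over the 22 libraries left without the 5, the C1q values were 0.95, 0.94 and 0.94.

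C1qc lay at 1177 ± 136 CPM in non-irradiated M0, 1279 ± 230 in M1 and 388 ± 136 in M2. After FLASH it lay at 625 ± 305, 630 ± 57.6 and 367 ± 127 CPM, and after standard irradiation at 762 ± 79.9, 580 ± 211 and 316 ± 75.2 CPM. The order of the groups was close to that of Axl, high in non-irradiated M0 and M1 and low in every M2 group.

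**Figure D4:**
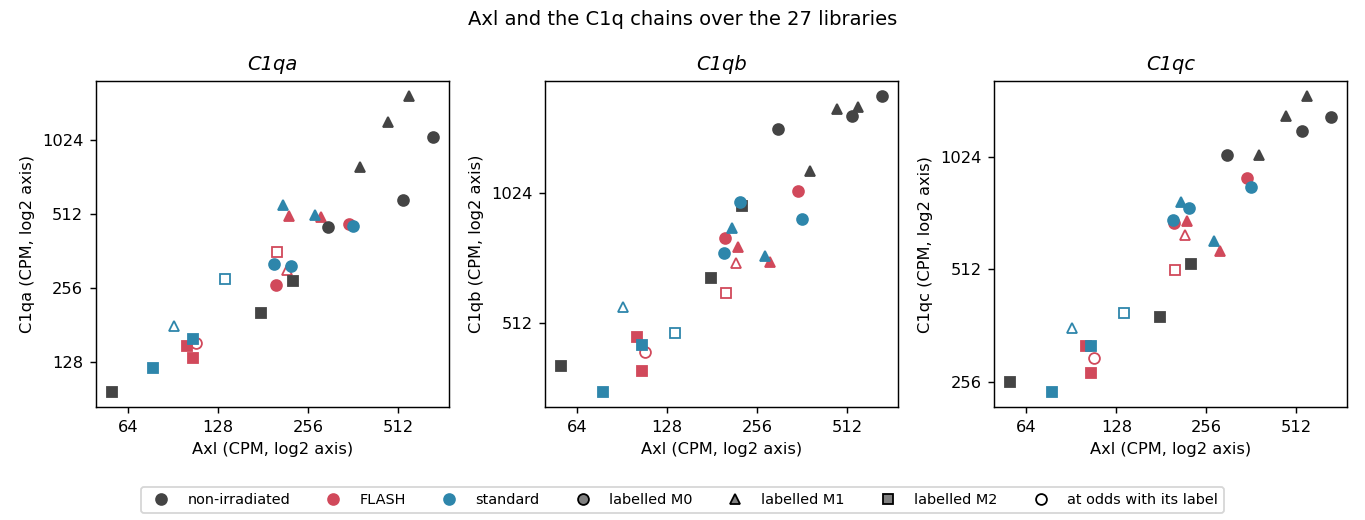
Axl against C1qa, C1qb and C1qc in CPM on log axes, 1 point for each of the 27 libraries, coloured by irradiation and shaped by labelled state, open where a library is at odds with its label. The points rise together in each panel (r = 0.94, 0.93 and 0.95). By group mean, non-irradiated M0 and M1 are highest and the M2 groups lowest, while single libraries cross this order.

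For Gas6 the closest genes were Pam (0.96), which encodes a peptide-amidating enzyme, Aldh2 (0.95), a mitochondrial aldehyde dehydrogenase, and C5ar2 (0.94), a receptor for complement C5a. For Mfge8 they were Lrp1 (0.94), itself a receptor in the uptake of dying cells, Gramd3 (0.93) and Mocos (0.93). Mertk was closest to Sdcbp (0.94), the scaffold protein syntenin, then Pde7b (0.87) and Wbp1 (0.86). Pros1 was closest to Slc25a13 (0.97), Syncrip (0.96) and Phka2 (0.96), and Tyro3 to Fam73b, Sdhc and Nudt3 (0.82 to 0.83). Without the 5 libraries the same genes had an r of 0.94 to 0.96 with Gas6, 0.93 to 0.95 with Mfge8, 0.86 to 0.93 with Mertk, 0.96 to 0.97 with Pros1 and 0.84 to 0.88 with Tyro3.

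The rest of the uptake pathway was described from 6 lists, each read beside the median of all tested genes, which was -0.01 in each comparison named here, and beside the shares of all tested genes called: 17.4% with LPS, 9.83% with IL-4, 7.72% after FLASH and 7.88% after standard irradiation. Of 9 tested genes that process TAM ligands and receptors or carry their feedback, 2 rose and 2 fell with LPS. Those that rose were the cytokine signalling inhibitors Socs1 (log2 3.94, adjusted p = 0.0031) and Socs3 (3.90, 0.048). Those that fell were Ggcx (-0.996, 0.015), the carboxylase that activates GAS6 and protein S, and Vkorc1 (-0.91, 0.017), which recycles the vitamin K it needs. With IL-4 1 of the 9 rose, Socs1 (3.72, 0.0052). Vkorc1 rose over the mean of states after FLASH (0.53, 0.025) and standard irradiation (0.55, 0.020), from 14.2 to 19.9 and 20.6 CPM, as the only called gene of this list in each.

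Of 15 other receptors for phosphatidylserine or dying cells, 2 rose and 2 fell with LPS, where 17.4% of all tested genes were called, and their median was -1.02. Cd300lf (4.15, adjusted p = 0.0074) and the scavenger receptor Scarf1 (1.57, 0.0057) rose, and Itgb5 (-1.56, 0.013), the β5 chain of an integrin that MFG-E8 binds, and Cd300a (-1.13, 0.023) fell. With IL-4 1 fell, the scavenger receptor Stab1 (-3.75, 0.0024), and none rose. Itgav, the αv chain of the MFG-E8 receptors, was the 1 gene of the 15 that rose after FLASH (0.62, 0.0010) and after standard irradiation (0.53, 0.0042).

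Of 8 other opsonins and bridges, 1 fell with LPS, Anxa5 (-0.82, adjusted p = 0.0080), which itself binds phosphatidylserine. With IL-4 3 fell, C1qa (-1.90, 0.023), C1qc (-1.65, 0.0058) and C1qb (-1.30, 0.0075), and the list median was -0.77. After irradiation C1qb and C1qc fell over the mean of states, 2 of 8 in each mode, by 0.83 and 0.71 on the log2 scale for FLASH (adjusted p = 0.0026 and 0.031) and by 0.82 and 0.69 for standard (0.0030 and 0.034).

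Among 14 tested genes of engulfment and digestion, Atg5 (0.61, adjusted p = 0.036), a gene of the autophagy machinery, rose with LPS. Ucp2 (-1.48, 0.028), the engulfment factor Dock1 (-0.93, 0.017) and the lipid transporter Abca7 (-0.82, 0.0054) fell. With IL-4 1 fell, listed as 1700021K19Rik (-0.73, 0.019), an older name of Rubcn, a gene of LC3-associated phagocytosis. After FLASH 1 fell, the GTPase Rac1 (-0.22, 0.018), and after standard irradiation none of the 14 was called. Of 8 nuclear receptors and lineage factors, Nr1h3 (1.89, 0.025), the lipid sensor LXRα, rose with LPS. Maf (-2.55, 0.0050), Rxra (-0.77, 0.0057) and Ppard (-0.53, 0.037) fell with IL-4, and after standard irradiation Ppard fell (-0.40, 0.0079), with none called after FLASH.

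Of 8 genes that attract phagocytes or hold them off, Cd47 (1.39, adjusted p = 0.0080), the don't-eat-me signal, rose with LPS and Cx3cr1 (-1.80, 0.020), a receptor for a find-me chemokine, fell. With IL-4 Cx3cr1 (-3.43, 0.00085), S1pr1 (-2.34, 0.027) and Sirpa (-0.75, 0.0096), the receptor for CD47, fell. Gpr132, a lysophospholipid-sensing receptor, fell after FLASH (-1.02, 0.023) and after standard irradiation (-0.96, 0.031), the 1 called gene of the 8 in each mode.

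Without the 5 libraries more genes of these lists passed, as did more genes overall: 34.7% of tested genes with LPS, 26.0% with IL-4, 14.3% after FLASH and 17.9% after standard irradiation. With LPS the counts of genes that rose and fell became 2 and 8 for the 15 receptors, 2 and 6 for the 14 engulfment genes, 2 and 4 for the 9 TAM genes, 1 and 3 for the 8 opsonins and 1 and 1 for the nuclear receptors. With IL-4 they became 1 and 5 for the receptors, 2 and 4 for engulfment, 2 and 1 for the TAM genes, 1 and 4 for the opsonins and 0 and 4 for the nuclear receptors. Over the mean of states after irradiation, 4 of the 8 opsonins fell in each mode, and of the 15 receptors 2 rose and 1 fell in each. The find-me and don't-eat-me list kept its counts, except that 2 genes fell after FLASH.

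Markers of other cells moved with irradiation as well. The summed level of 10 neutrophil and precursor genes was 71.9 to 1009 CPM without irradiation, 34.6 to 136 CPM after FLASH and 37.2 to 88.4 CPM after standard irradiation, and 8 of the 10 fell over the mean of states in each mode, where 7.72% and 7.88% of all tested genes were called. In non-irradiated cells 1 of these 10 fell with LPS, where 17.4% of genes were called, and 4 with IL-4, where 9.83% were. The 8 B lineage genes summed to 33.2 to 149 CPM without irradiation and to 7.52 to 21.5 and 6.17 to 23.9 CPM after it, with 7 and 6 of 7 tested genes called lower. Of 6 megakaryocyte genes 5 fell in each mode. Of 9 tested stromal genes none was called, and their sums were 44.6 to 553, 30.0 to 203 and 51.9 to 537 CPM. The dendritic genes summed to 11.2 to 44.2, 2.99 to 28.8 and 4.26 to 26.9 CPM and the endothelial genes to 63.6 to 309, 25.6 to 261 and 33.3 to 253 CPM, with 1 called gene lower in each list and mode. The 10 macrophage genes summed to 7351 to 28448, 12482 to 28261 and 13271 to 27098 CPM, with 1 called higher and 1 lower in each mode. These pooled ranges hide a difference in M2. There the macrophage sum was 7351 to 7973 CPM without irradiation, 12482 to 23236 after FLASH and 13271 to 25342.5 after standard irradiation. The middle library was at 15299 CPM in FLASH M2 and at 13651 CPM in standard M2. Each of these 2 groups holds a replicate 1 at odds with its label, and M2 sums without it were not determined. Lyz2, 1 of the 10 genes, alone ranged from 2969 to 20397 CPM over all libraries. In M0 and M1 the irradiated ranges overlapped the non-irradiated ones. Non-irradiated M0 summed to 16746.5 to 21139 CPM, above non-irradiated M2. No gene of any of these lists was at 0 in all libraries of an irradiation group. Under 1 CPM in every library were 0, 1 and 2 neutrophil genes and 1, 5 and 5 B lineage genes without irradiation, after FLASH and after standard irradiation. Without the 5 libraries, where 14.3% and 17.9% of tested genes were called, the called counts were the same, except that 7 B lineage genes fell after standard irradiation, 4 dendritic genes fell in each mode and 3 macrophage genes fell after standard irradiation. The neutrophil sums kept their ranges, and the B lineage sums were 7.52 to 17.8 and 8.68 to 23.9 CPM. In bulk RNA, fewer cells of a type and less RNA per cell cannot be told apart, and the part of these shifts in the differences of the 6 genes was not tested.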

How the data were processed

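Expression values of the 27 libraries came from 1 deposited table of signal, TMM-scaled CPM on a linear scale, made by the authors with kallisto 0.46.1 and edgeR 3.36.0 (R 4.0.5), per the submitters' processing notes. Although the samples are mouse, the build in those notes is the human GRCh38. Coordinates and sequences therefore come from RefSeq on GRCm38.p6, and transcript lengths from mouse GENCODE. Of 19070 entries, 1 without a symbol (0.0048% to 0.0080% of a library) was left out. The smallest step between values gave 20.68 M to 25.84 M assigned reads per library. Because only 86.8% to 93.6% of values under 20 reads were whole within 0.01 read, no test made for counts was used.

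A gene was tested if 3 or more libraries reached 1 CPM, which left 13297 genes with all 6 members among them. Group means of the 9 groups were fitted jointly to log2(CPM + 0.5) with limma 3.58.1 under R 4.3.3, using statmod 1.5.0 for robust moderation, an intensity trend and Benjamini-Hochberg adjustment over all tested genes. Fold changes on this scale understate changes of genes near 0. The fit was tried on simulated data with changes planted in the FLASH libraries, for the FLASH against non-irradiated mean of states only. No simulated library went against its label, and the other comparisons were not tried in this way.

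The members and lists were chosen with earlier results of these data known. Named were all 6 members, up to 3 called genes per list and direction with the largest change (mean of 5 CPM or more in the higher group), and the 3 genes most like each member. Groups came from the labels. A library counted as at odds with its label when it passed 0.5 on the other state's axis or stayed under 0.5 on its own. Alternatives were other pseudocounts, filters, scaling, variance fits, subsets of groups or replicate numbers, a replicate block, and leaving out each library. Titles of same-numbered libraries share a code of unstated meaning. Deviations from group means correlated above 0.1 in all 3 same-numbered pairs of FLASH and standard M1 (0.36 to 0.59) and M2 (0.46 to 0.78), which were therefore also fitted as pairs, and in none of the pairs of the other 14 comparisons of 2 groups.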

Additional observations from a re-analysis of the deposited data

Results flagged for a closer look

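By a direct test, the response of Mertk to LPS differed between FLASH-irradiated and non-irradiated cells only without the 5 libraries at odds with their labels. The FLASH interaction was then -1.24 on the log2 scale (limma adjusted p = 0.037). This was the 1 passing setting of 22 alternatives, and it left 2 libraries each in FLASH M0 and M1. With all libraries the FLASH interaction was -1.0 and did not pass (adjusted p = 0.16). Mertk was also higher in every non-irradiated M1 library than in M0 and lower in every standard-irradiated one, and the interaction for standard irradiation was -0.958 (adjusted p = 0.21 with all libraries, 0.057 without the 5).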

How the results depend on the processing

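The calls of Gas6 in M1 and in M2 against M0, of Mertk in M2 against M0, and of Mertk and Pros1 in M1 against M2, all without irradiation, held in all 16 alternatives run for each, and no called value changed sign in any. The number of members called moved by over 1.5 times as follows. Without the 5 libraries at odds with their labels it went from 2 to 4 (M1 against M0, non-irradiated), 3 to 5 (M2), 0 to 4 and 0 to 2 (FLASH M1, M2), 0 to 4 and 1 to 4 (standard M1, M2), 0 to 2, 0 to 1, 0 to 1 and 1 to 2 (FLASH against none: mean, M0, M1, M2), 1 to 2, 0 to 1, 0 to 1 and 1 to 2 (the same for standard) and 0 to 1 (FLASH by M1 interaction). With replicate numbers 2 and 3 alone it was 4, 1, 3 and 2 for those FLASH and standard state responses, 1 for the FLASH mean and 1 for standard M1 against none. With no filter it was 1 for non-irradiated M1 against M0, 0 for the standard mean and 0 for standard M2 against none, and without trend or robust moderation 1 and 0 for the first and last of these. With the compared groups alone it was 1 for standard M1 against M0, 0 for FLASH M2 and standard M2 against none, and 1 for standard M0 against none. Leaving out 1 library gave 1 to 3 (non-irradiated M1 against M0), 0 to 1 (FLASH M1 against M0), 0 in each case (standard M2 against M0), 0 to 1 (FLASH mean and FLASH M2 against none), 0 to 2 (standard mean) and 0 to 1 (standard M2 against none). Smaller moves, all without irradiation, were to 3 (M1 against M0) and 5 (M1 against M2) with the compared groups alone, to 4 (M2 against M0) and 3 (M1 against M2) with replicate numbers 2 and 3, and over single libraries 2 to 3 (M2 against M0) and 3 to 4 (M1 against M2). An equal count can hide an exchange: with the compared groups alone Pros1 took the place of Axl in non-irradiated M2 against M0, and with replicate numbers 2 and 3 Pros1 that of Mertk in non-irradiated M1 against M0 and Gas6 that of Mertk in FLASH and standard M2 against none. The cause was not tested beyond the libraries left out.

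In the 2 comparisons whose same-numbered libraries deviated together, FLASH against standard in M1 and in M2, the replicate block called 0 of 6 members. It also called 0 with those groups alone, as did the fit without it. In the other 14 comparisons of 2 groups no same-numbered pair had correlated deviations above 0.1. With the replicate block the number called was 1 for non-irradiated M1 against M0 and 0 for standard M2 against M0, FLASH M2, standard M2 and the standard mean against none, and it did not move for the other comparisons. Tyro3 rests on 10 to 147 reads per library, which limits its precision.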
